A study of Mus musculus with 24 samples.

Results

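The mitochondrial ribosomal protein genes were followed through 24 RNA sequencing libraries of mouse bone marrow LSK cells. Members were the protein-coding genes whose symbol is Mrpl or Mrps followed by a number, which gave 78 of the 55414 genes in the files; 5 pseudogenes with such symbols, which together had 270 to 498 counts per library, were left out. LSK cells, which lack lineage markers and carry Sca-1 and Kit, include the blood stem cells and multipotent progenitors. They were sorted from crushed leg and hip bones of 21-day-old pups after depletion of lineage-positive cells. The pups' C57BL/6J mothers, 4 to 5 weeks old on arrival, ate regular chow (2018SX, the control) or a Western diet (TD.88137, given to induce obesity) for 4 weeks before mating, through pregnancy and while nursing. Female control, female Western-diet, male control and male Western-diet pups gave 6 libraries each, and the labels place 2 libraries of every group in each of 3 batches without saying what a batch was. No dam, litter or pool is named, so the p-values refer to the spread among these libraries, some of which may come from littermates.

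Mitochondria keep a small genome that encodes core subunits of the respiratory chain and of ATP synthase, and they translate its messenger RNAs on ribosomes of their own. The 2 ribosomal RNAs of these mitoribosomes come from mitochondrial DNA, whereas every protein is encoded in the nucleus, made in the cytosol and imported. Some of the proteins have counterparts in bacterial ribosomes, and others were gained in mitochondria and form an outer protein shell. Blood stem cells are known to rely largely on glycolysis while quiescent and to raise mitochondrial activity when they divide and differentiate. Among the 78 genes, 30 encode large-subunit proteins with a bacterial counterpart, 21 large-subunit proteins specific to mitochondria, 16 small-subunit proteins with a bacterial counterpart and 10 small-subunit proteins specific to mitochondria. The symbols mislead in a few cases: Mrps30 and Mrps18a encode proteins of the large subunit, and Mrps36 encodes a component of the 2-oxoglutarate dehydrogenase complex of the citric acid cycle and no part of the ribosome.

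The stretches before the start sites of 5 genes are shown because 4 of them passed a test for maternal diet and the other, Mrpl57, holds a match for NRF1, a regulator of many nuclear genes for mitochondrial proteins. Sequences are from RefSeq, build GRCm38.p6, given 5′ to 3′ on the gene's strand, the 250 bases before the start site. Capitals mark a match to CCGGAAG (the core bound by ETS factors such as GABPA, also named NRF2), to GCGCNTGCG (NRF1) or to AAGATGGCG (YY1), searched on both strands, so a match on the opposite strand reads as the reverse complement. The position is chr9:98601680-98601929 (minus strand) for Mrps22, chr14:54426659-54426908 (plus) for Mrpl52, chr7:78782881-78783130 (plus) for Mrps11, chr13:100744660-100744909 (minus) for Mrps36 and chr14:57825989-57826238 (plus) for Mrpl57.
Mrps22: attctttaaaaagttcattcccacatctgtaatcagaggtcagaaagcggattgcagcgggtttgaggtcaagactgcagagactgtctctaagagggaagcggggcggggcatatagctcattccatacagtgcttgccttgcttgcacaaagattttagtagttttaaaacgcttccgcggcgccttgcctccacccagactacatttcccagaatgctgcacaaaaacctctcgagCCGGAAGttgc
Mrpl52: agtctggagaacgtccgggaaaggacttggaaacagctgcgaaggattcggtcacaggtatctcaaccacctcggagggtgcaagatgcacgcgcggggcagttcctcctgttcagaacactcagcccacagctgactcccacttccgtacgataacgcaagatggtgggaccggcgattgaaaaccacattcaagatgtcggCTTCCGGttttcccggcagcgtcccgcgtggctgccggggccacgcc
Mrps11: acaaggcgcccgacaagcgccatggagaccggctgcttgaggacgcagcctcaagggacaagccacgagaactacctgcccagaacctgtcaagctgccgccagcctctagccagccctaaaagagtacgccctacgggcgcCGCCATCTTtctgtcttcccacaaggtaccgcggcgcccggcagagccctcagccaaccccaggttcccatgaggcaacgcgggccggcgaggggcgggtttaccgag
Mrps36: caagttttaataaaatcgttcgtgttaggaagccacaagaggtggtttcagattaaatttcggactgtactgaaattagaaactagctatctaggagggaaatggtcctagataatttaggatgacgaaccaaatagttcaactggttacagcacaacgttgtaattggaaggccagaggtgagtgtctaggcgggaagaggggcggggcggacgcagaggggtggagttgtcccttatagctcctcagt
Mrpl57: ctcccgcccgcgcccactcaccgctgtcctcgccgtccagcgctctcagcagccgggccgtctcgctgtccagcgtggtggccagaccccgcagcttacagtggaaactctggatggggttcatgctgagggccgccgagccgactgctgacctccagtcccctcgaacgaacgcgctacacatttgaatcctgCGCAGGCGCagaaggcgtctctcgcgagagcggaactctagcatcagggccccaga
Mrps22 and Mrpl52 carry the ETS core at -11 and -47 from the start site, Mrps11 the YY1 motif at -108 and Mrpl57 the NRF1 motif at -56. None of these 3 motifs matches in the Mrps36 stretch. Mrpl52 and Mrpl57 hold a further ETS core just after the start site, which is not shown.

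RefSeq promoter windows of 300 bases (250 before and 50 after the start) were matched for 69 of the 78 genes, some with more than 1 start, giving 75 windows against 20120 windows of 16500 protein-coding genes. The ETS core was in 26 of the 75 windows (34.7%, against 11.9% of all windows), the NRF1 motif in 18 (24% against 8.93%) and the YY1 motif in 8 (10.7% against 1.92%). CCAAT was in 30 windows (40% against 37.8%) and the E-box CACGTG in 7 (9.33% against 8.03%); counted per gene, the members' shares were the lower ones, 39.1% against 42.1% for CCAAT and 7.25% against 9.18% for the E-box. TATAAA was in 5 windows (6.67% against 12.2%). None of the 6 motifs contains another. Median GC content was 58.7% in the genes' windows and 57% in all. The matches are a description of letters; binding was not measured here.

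Libraries held 38057263 to 51581968 counts in genes, of which 0.630 to 1.00% fell in the 78 genes. LSK markers had a summed level of 1131 to 2870 CPM per library (CPM, counts per 1000000 counts of library size, scaled by the TMM method). The summed levels of other cells' markers reached 12269 CPM for megakaryocyte-erythroid progenitors, 8831 CPM for mature erythroid cells, 1099 CPM for macrophages, 146 CPM for B cells, 144 CPM for neutrophils and 13.3 CPM for T and NK cells, with Ly6g, which defines neutrophils, at 0 to 2 counts. Of the 78 genes, 77 passed the filter on low counts and were tested. The exception was Mrpl53, listed at 0 to 3 counts per library; 88.0% of its exon length is shared with overlapping genes in the annotation, and by default HTSeq does not count a read that fits 2 genes.

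Levels per exon length spanned a wide range (CPM per kb of merged exon, mean of the 24 libraries). Mrpl28 was highest at 219 CPM per kb, followed by Mrpl12 at 186, Mrpl34 at 183 and Mrpl36 at 168. Mrpl12 forms the flexible stalk that recruits translation factors, and Mrpl34 and Mrpl36 are small core proteins shared with bacteria. The lowest tested gene was Mrps30 at 1.60 CPM per kb, below Mrps35 at 5.73, Mrpl33 at 5.75 and Mrps6 at 7.54. Medians were 33.6 CPM per kb for large-subunit proteins with a bacterial counterpart, 41.7 for those specific to mitochondria, 37.5 for small-subunit proteins with a counterpart and 17.3 for small-subunit proteins specific to mitochondria. Mrpl58, a peptidyl-tRNA hydrolase built into the large subunit that can free stalled ribosomes, stood at 20.9 CPM per kb. Among the 3 paralogs of bacterial protein S18, Mrps18c reached 39.8, Mrps18a 33.8 and Mrps18b 18.03 CPM per kb. Exon overlap with other genes can lower these values. It affects 33 of the genes, among them the untested Mrpl53 of the large subunit (88.0% of the exon length). Of the small-subunit genes specific to mitochondria, Mrps34 has 77.8%, Mrps25 69.8% and Mrps18b 30.5%. Tested genes of the large subunit are affected too, with 36% in Mrpl19 and 33.4% in Mrpl43. The part of overlap in the class medians was not tested. The values also depend on the merged exon length they are divided by. It was 1380 bases for Mrpl28 and 607 for Mrpl34, against 6666 for Mrps30, 8631 for Mrps35 and 7326 for Mrpl33. Mrps6, also low, had 1533 bases. Mrpl42, highest in CPM at 340, had 92.3 CPM per kb.

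**Figure D1:**
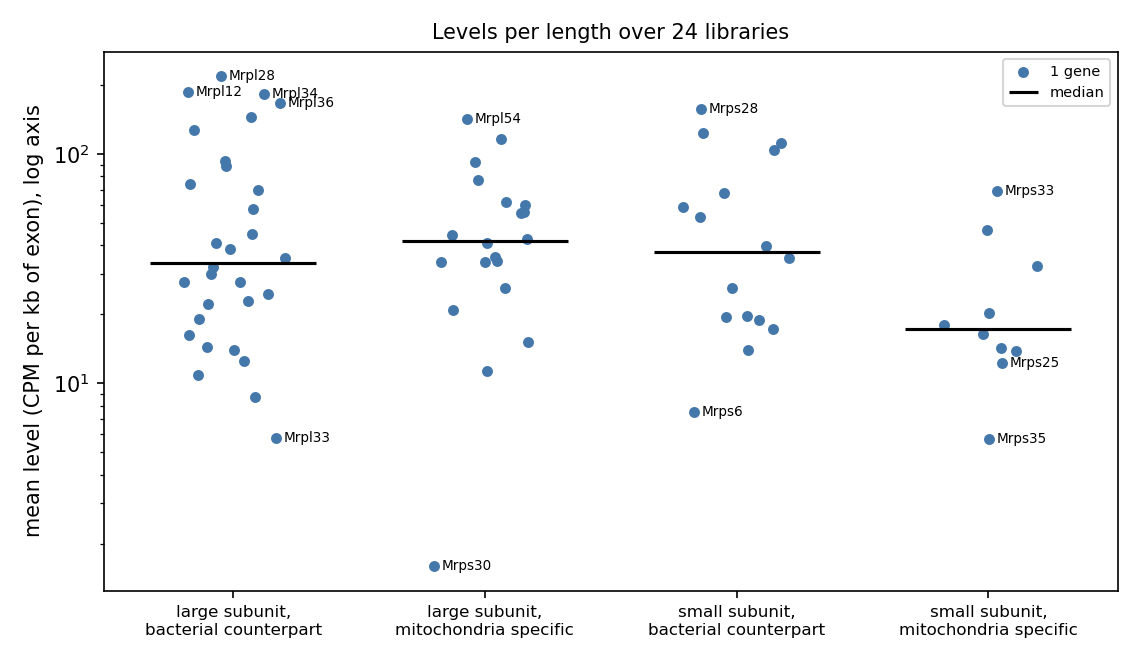
Mean level of each tested gene over 24 libraries in CPM per kb of exon on a log axis, by subunit and by whether the protein has a bacterial counterpart; each point is 1 gene and the line is the median of its class. Mrpl28, Mrpl12, Mrpl34 and Mrpl36 lead, Mrps30 lies lowest, and the small-subunit proteins specific to mitochondria have the lowest median (17.3 CPM per kb). Values depend on merged exon length and can be lowered by exon overlap with other genes.

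The clearest pattern among these genes was by batch, not by maternal diet. Their summed level was 7470 ± 744 CPM in batch 1, 7611 ± 727 in batch 2 and 9233 ± 883 in batch 3 (SD, n = 8 libraries each, 2 of every group). The lowest, median and highest library were 6100, 7619 and 8365 CPM in batch 1, 6764, 7472 and 8792 in batch 2 and 7984, 9249 and 10412 in batch 3. In the female control, female Western-diet, male control and male Western-diet groups alike, both libraries of batch 3 were above all 4 libraries of the other batches; across groups the ranges overlap. By group the sums were 8653 ± 790 CPM in female controls, 8324 ± 1452 in female Western-diet pups, 7997 ± 1250 in male controls and 7445 ± 653 in male Western-diet pups (SD, n = 6), which overlap throughout.

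**Figure D2:**
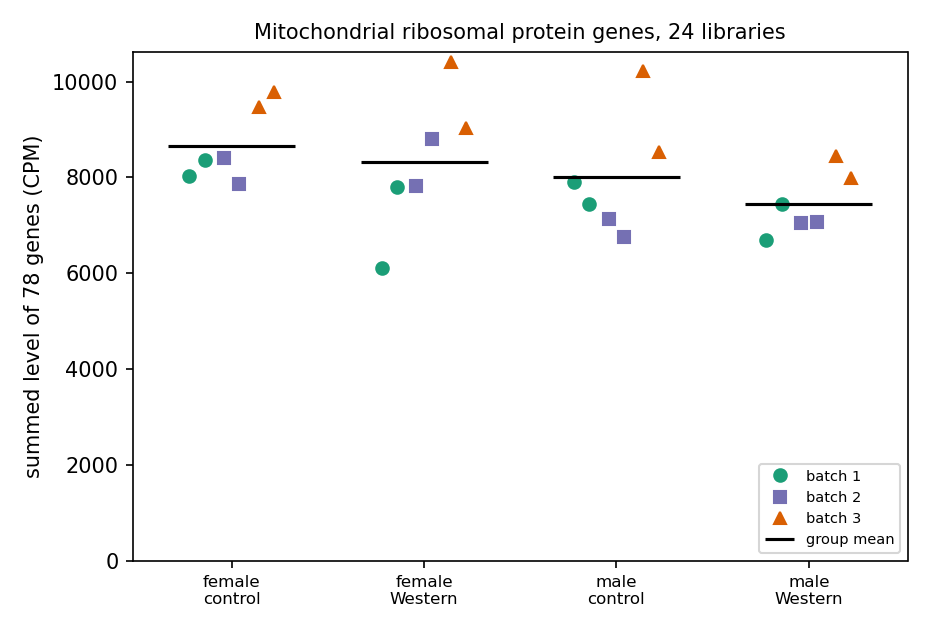
Summed level of the 78 genes in each of the 24 libraries (CPM), by group; symbols mark the batch and the line is the group mean. In every group the 2 libraries of batch 3 lie highest, and the group means lie between 7445 and 8653 CPM.

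In the test of both batch terms together, 47 of the 77 genes (61.0%) passed an adjusted p of 0.05 (edgeR's quasi-likelihood test, Benjamini-Hochberg over 19616 genes), against 24.2% of all genes. Between batches 3 and 1, 43 genes rose (55.8%) and 0 fell, where 7.77% of all genes rose and 12.5% fell. All 77 log2 differences between these batches were positive, from 0.05 to 0.52 with a median of 0.30 (all genes, -0.03). Between batches 3 and 2, 42 rose (54.5%, against 6.67% of all genes) and 0 fell (8.30% of all genes), with a median of 0.31 (all genes, -0.04). Batches 1 and 2 were not told apart in these genes: edgeR called 0 of 77 (6.09% of all genes), 1 had an unadjusted p under 0.05 (1.30%, against 18.1% of all genes), and the median was 0.00. In 53 genes (68.8%) the batch 3 mean exceeded the batch 1 mean in each of the 4 groups, which held for 13.3% of all genes.

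Both subunits and both origins took part. Between batches 3 and 1, 17 of 30 large-subunit genes with a bacterial counterpart rose (median log2 difference 0.29), 14 of 20 large-subunit genes specific to mitochondria (0.33), 7 of 16 small-subunit genes with a counterpart (0.29) and 4 of 10 small-subunit genes specific to mitochondria (0.22). Whether these shares differ between classes was not tested. The gene outside the ribosome, Mrps36, rose too.

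Mrps22, a small-subunit protein specific to mitochondria, had the smallest p for batch. Its lowest, median and highest levels were 45.6, 56.7 and 67.3 CPM in batch 1, 51.3, 54.8 and 77.6 in batch 2 and 65.3, 79.6 and 99.4 in batch 3. Of the 8 libraries of batch 3, 6 lay above all of batch 1 and 4 above all of batch 2. Its log2 difference between batches 3 and 1 was 0.52 ± 0.08 (SE; adjusted p = 8.7e-05 in edgeR).

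Mrpl36 ranged from 147 to 188 CPM in batch 1 (median 179), from 158 to 212 in batch 2 (median 177) and from 198 to 263 in batch 3 (median 230). All 8 libraries of batch 3 were thus above all 8 of batch 1, which among the 77 genes held also for Mrps25 (54.5 to 78.8 CPM in batch 1, 78.9 to 114 in batch 3) and for 0.479% of all genes. The log2 difference was 0.42 ± 0.07 for Mrpl36 and 0.31 ± 0.09 for Mrps25 (SE). Much of the Mrps25 exon length is shared with Nr2c2, and its count may leave out reads there.

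Next in order of p came Mrpl22, which lines the tunnel through which the new protein leaves the ribosome, Mrpl38 and Mrpl41. Mrpl22 had medians of 84.1, 81.4 and 112 CPM in batches 1, 2 and 3, Mrpl38 of 94.9, 93.4 and 130 CPM, and Mrpl41 of 92.8, 94.3 and 133 CPM. Their log2 differences between batches 3 and 1 were 0.45 ± 0.08, 0.44 ± 0.08 and 0.45 ± 0.09 (SE).

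Other genes of mitochondrial translation also rose between batches 3 and 1, with fewer calls between batches 3 and 2. Of the 5 ribosomal subunits with other names (Dap3, Ptcd3, Chchd1, Aurkaip1 and Gadd45gip1), 4 rose between batches 3 and 1 (median log2 difference 0.29). Rises were also seen in 8 of 13 translation factors (0.26), among them Gfm1, the elongation factor for translocation (0.31), and Taco1, an activator of COX1 translation (0.56). Of the mitochondrial aminoacyl-tRNA synthetases and the related amidotransferase, 9 of 20 rose (0.29), and of the ribosome assembly factors 8 of 28 (0.21). Mitochondrial transcription and mRNA-handling genes rose in 5 of 10 cases (0.34), one of them Twnk, the replicative helicase (0.45). The nuclear regulators, which include Nrf1 and the PGC-1 family, did not follow: 0 of 9 rose and 1 fell. Cytosolic ribosomal protein genes had 2 that rose and 1 that fell of 82 (0.11), with 70 differences positive and 12 negative. Between batches 3 and 2 they had 3 that rose and 0 that fell (median 0.20), with 75 positive and 7 negative. In that comparison 1 of 5 subunits with other names, 6 of 13 translation factors and 6 of 28 assembly factors rose. So did 3 of 20 tRNA synthetase genes and 2 of 10 transcription and mRNA genes, while 3 of 9 nuclear regulators fell. Between batches 2 and 1 the synthetase genes had 17 of 20 differences positive (median 0.11). The transcription and mRNA genes had 9 of 10 (0.15) and the assembly factors 15 of 28 (0.01).

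RNAs made inside mitochondria did not rise between batches 1 and 3 by the test. Of the 11 tested mitochondrially encoded protein genes, edgeR called 0 in this comparison, with 0 at an unadjusted p under 0.05; 9 differences were negative and 2 positive (median log2 difference -0.09). Both mitochondrial ribosomal RNAs fell, mt-Rnr2 of the large subunit by 0.45 and mt-Rnr1 of the small subunit by 0.58 on the log2 scale (adjusted p for batch 0.00102 and 0.0350 in edgeR). Between batches 3 and 2 the protein genes leaned the other way, with 10 positive and 1 negative (median 0.15) and 1 called higher. The 2 ribosomal RNAs were both negative there, with 1 called lower. These RNAs carry only short tails, and the labels name polyA RNA as the molecule.

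Cell markers differed between the same batches. Of the 10 tested megakaryocyte-erythroid progenitor markers 8 rose from batch 1 to batch 3 (median log2 difference 0.70), while 5 of 10 LSK markers (-0.50), 4 of 4 B cell markers (-1.63), 4 of 4 macrophage markers (-1.29), 3 of 4 neutrophil markers and 2 of 5 T and NK markers fell, and mature erythroid markers had 2 that rose and 5 that fell of 10. Between batches 3 and 2, 8 of 10 megakaryocyte-erythroid markers rose (0.98) and 6 of 10 LSK markers fell (-0.47). There 3 of 4 B cell markers (-0.81), 1 of 4 neutrophil markers and 0 of 5 T and NK markers fell. Mature erythroid markers had 3 that rose and 0 that fell. Of the macrophage markers 0 were called and all 4 were positive (0.30), whereas 4 of 4 fell from batch 1 to batch 2 (-1.62). Summed megakaryocyte-erythroid markers ranged from 3538 to 7616 CPM in batch 1, 2156 to 6667 in batch 2 and 3555 to 12269 in batch 3. The share of counts in lines that name no gene averaged 35.3%, 35.6% and 33.1% in the 3 batches. The part of these shifts in the batch difference was not tested. In bulk libraries a change in the share of a cell type and a change of RNA per cell cannot be told apart.

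**Figure D3:**
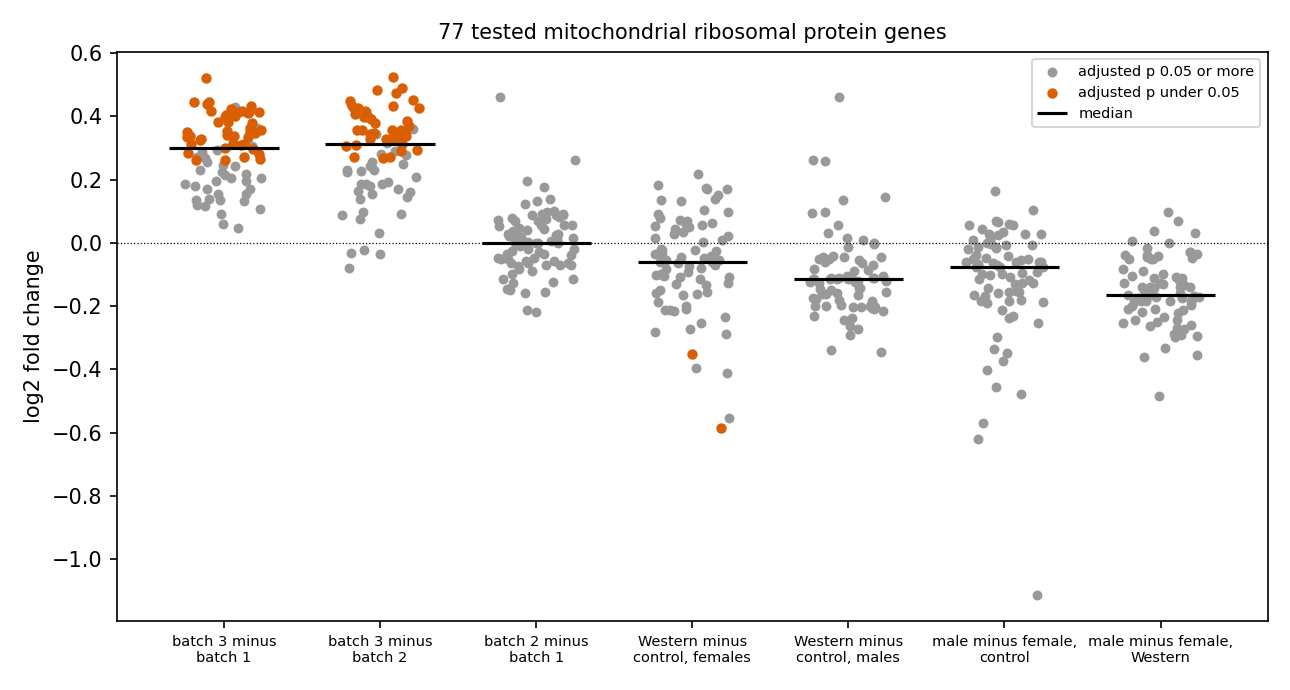
Log2 fold change of each of the 77 tested genes in 7 comparisons; orange points have an edgeR adjusted p under 0.05, grey points do not, and the line is the median. All points lie above 0 between batches 3 and 1 (median 0.30), most lie below 0 in both diet comparisons (medians -0.06 and -0.11), and 2 genes pass in females.

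Few of the genes differed with maternal Western diet beyond the spread between libraries. In females 2 of 77 genes fell (Mrps36 and Mrpl52) and 0 rose in edgeR, that is 2.60%, where 5.42% of all genes were called and 3.22% fell. The median log2 fold change was -0.06 (all genes, 0.03), with 27 genes positive and 50 negative. In males 0 of 77 passed (edgeR; 0.0102% of all genes, both lower), DESeq2 and limma-voom also called 0, and 6 had an unadjusted p under 0.05 (7.79%, against 8.45% of all genes). The median in males was -0.11 (all genes, 0.02), with 12 positive and 65 negative. Averaged over the sexes, 3 genes fell (Mrps22, Mrpl52 and Mrps11; 3.90%, against 3.51% of all genes that fell and 5.70% called in either direction) and 0 rose, with a median of -0.09 (all genes, 0.02) and 14 positive against 63 negative.

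By adjusted p, the share of members that fell was thus near that of all genes in females and in the average. An unadjusted p under 0.05 in edgeR was reached by 7 members in females (9.09%, against 21.3% of all genes). In the average 13 reached it (16.9%, against 20.6%). The lean to small negative values was wider in the set than over all genes. Of all genes, 53.6%, 53.8% and 54.7% were positive in females, males and the average. Cytosolic ribosomal protein genes leaned alike, with 62 of 82 negative in females and 75 of 82 in males (medians -0.04 and -0.12); edgeR called 0 in either sex, with 1 at an unadjusted p under 0.05 in each. By batch, 30 genes (39.0%) were lower with Western diet in each of the 3 batches in males, against 15.4% of all genes. In females 16 (20.8%) were, against 14.4%. The members vary together over libraries (median pairwise correlation 0.50 after group and batch are removed). Their signs are thus not independent, and a few libraries can tilt most of the set. In single batches the median reached 0.048 in females and 0.014 in males. The lean itself was not tested.

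Mrpl52 encodes a large-subunit protein specific to mitochondria. Its lowest, median and highest levels were 78.1, 89.2 and 109 CPM in female controls, 30.9, 67.4 and 84.8 in female Western-diet pups, 44.1, 61.6 and 118 in male controls and 46.9, 50.9 and 61.3 in male Western-diet pups. Of the 6 female Western-diet libraries 4 lay below every female control and all 6 below the control mean; in males all 6 lay below the control mean but within the controls' range. It fell in females by 0.59 ± 0.17 on the log2 scale (SE; adjusted p = 0.0477 in edgeR) and on average by 0.46 ± 0.12 (adjusted p = 0.0247). The difference in males was -0.34 ± 0.17 (adjusted p = 0.611).

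Mrps22 had levels of 60.5, 72.3 and 99.4 CPM in female controls, 47.2, 61.7 and 84.4 in female Western-diet pups, 53.0, 61.5 and 92.1 in male controls and 45.6, 52.2 and 66.0 in male Western-diet pups (lowest, median and highest). The groups overlap, and the highest libraries of each group are those of batch 3. Within batches the Western-diet mean was lower in all 3 batches in both sexes. Averaged over the sexes it fell by 0.26 ± 0.06 (SE; adjusted p = 0.0169 in edgeR). Within sexes the differences were -0.28 ± 0.09 in females (adjusted p = 0.0727) and -0.24 ± 0.09 in males (adjusted p = 0.464).

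Mrps11, a small-subunit protein with a bacterial counterpart, showed 53.3, 63.2 and 76.1 CPM in female controls, 43.2, 48.2 and 73.4 in female Western-diet pups, 42.7, 55.5 and 89.0 in male controls and 39.9, 47.7 and 55.3 in male Western-diet pups. In females 4 of the 6 Western-diet libraries lay below every control, and both others, the ones of batch 3, lay among them. It fell on average by 0.27 ± 0.08 (SE; adjusted p = 0.0416 in edgeR), with -0.27 in each sex. Mrps11 and Mrpl46 stand head to head and share 7.97% of the Mrps11 exon length; without strand, reads there cannot be told apart.

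Mrps36 had 48.8, 59.3 and 71.8 CPM in female controls, 37.7, 46.9 and 62.7 in female Western-diet pups, 36.8, 48.6 and 68.1 in male controls and 42.6, 46.2 and 54.8 in male Western-diet pups. In females 4 of 6 Western-diet libraries lay below every control and 5 below the control mean. It fell in females by 0.35 ± 0.10 (SE; adjusted p = 0.0424 in edgeR); the average difference was -0.23 ± 0.07 (adjusted p = 0.0562) and that in males -0.11 ± 0.10 (adjusted p = 0.783).

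**Figure D4:**
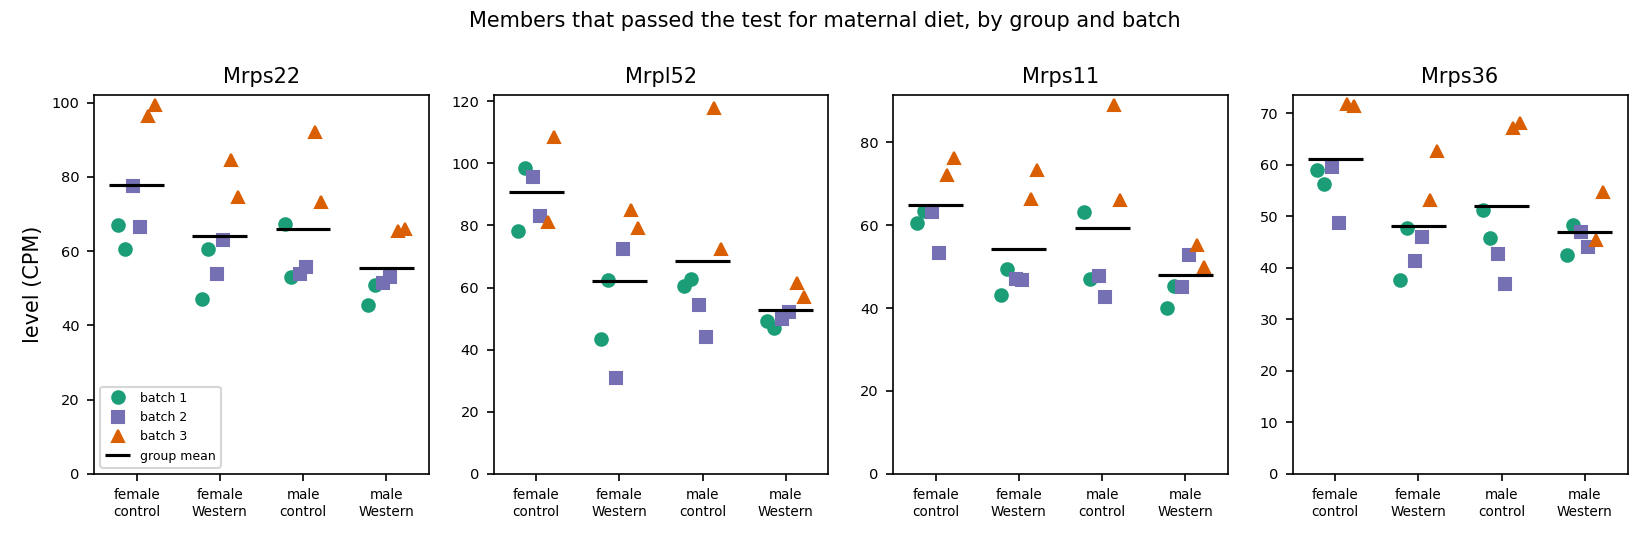
Levels (CPM) of Mrps22, Mrpl52, Mrps11 and Mrps36 in each library, by group; symbols mark the batch and the line is the group mean. Western-diet means lie below control means in both sexes, batch 3 lies high in most groups, and in each panel at least 3 female Western-diet libraries lie below every female control.

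Just outside the threshold were Mrpl57 in females (-0.29 ± 0.10, adjusted p = 0.0925), with 126 to 166 CPM in controls and 90.5 to 149 CPM with Western diet, and Mrps18b on average (-0.29 ± 0.09, adjusted p = 0.0519). Among the 20 genes with the smallest p in females, 16 had a negative difference. The 4 positive ones were Mrpl44 (0.18), Mrpl24 (0.14), Mrpl19 (0.13) and Mrpl16 (0.17), with adjusted p from 0.294 to 0.458. Mrpl44, a double-stranded RNA-binding protein of the large subunit, had 48.0 to 58.7 CPM in female controls and 48.3 to 82.0 CPM in female Western-diet pups.

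Several of these diet calls crossed the threshold when single libraries were left out, while the differences kept their direction. The female call of Mrpl52 was lost when any one of 12 of the 24 libraries was left out (adjusted p up to 0.102): female control replicates 1, 2, 3, 4 and 6, female Western-diet replicates 1, 3, 5 and 6, male control replicates 2 and 3 and male Western-diet replicate 5. Its log2 fold change then lay between -0.72 and -0.47. That of Mrps36 was lost with any one of 11 (up to 0.107): female control replicates 1, 2, 3, 5 and 6, female Western-diet replicates 1, 3 and 5 and male control replicates 2, 3 and 5, with log2 fold changes of -0.41 to -0.32. The average call of Mrps11 was lost with any one of 12 (up to 0.0829): female control replicates 1, 2, 3 and 6, female Western-diet replicates 3, 4 and 5, male control replicates 1 and 5 and male Western-diet replicates 1, 5 and 6, with log2 fold changes of -0.32 to -0.24. Mrps22 and Mrpl52 on average passed without any single library (adjusted p at most 0.0386 and 0.0499). Without batch 3, Mrps22 gave -0.24 (adjusted p = 0.294) and Mrpl52 -0.46 (adjusted p = 0.180).

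Megakaryocyte-erythroid progenitor and erythroid markers moved in the same comparisons. In females 7 of 10 megakaryocyte-erythroid markers fell with Western diet (median log2 fold change -1.08) and 5 of 10 mature erythroid markers (-0.98), while 1 LSK marker, Mecom, rose; in the average 7 of 10 and 8 of 10 fell. In males 1 of 10 megakaryocyte-erythroid markers fell (median -0.54) and edgeR called 0 of 10 mature erythroid markers (-1.22), with 6 and 10 at an unadjusted p under 0.05; all 10 differences were negative in both lists. Summed megakaryocyte-erythroid markers ranged from 4778 to 12269 CPM in female controls and from 2156 to 6407 CPM in female Western-diet pups, and from 3828 to 9920 and 2796 to 4839 CPM in males. Their part in the differences of Mrpl52, Mrps22, Mrps11 and Mrps36 was not tested.

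Partners of the mitoribosome gave few calls for diet. In females edgeR called 0 genes among the 5 otherwise-named subunits, 13 translation factors, 20 tRNA synthetase genes, 28 assembly factors, 10 transcription and mRNA genes, 9 nuclear regulators, 11 mitochondrially encoded proteins and 2 ribosomal RNAs, with 13 of these 98 genes at an unadjusted p under 0.05, a lower share than the 21.3% of all genes. Closest were Sars2, the mitochondrial seryl-tRNA synthetase (-0.28 ± 0.09, adjusted p = 0.0645), Aars2, the alanyl-tRNA synthetase (-0.54 ± 0.18, adjusted p = 0.0801), and Pprc1, a coactivator of the PGC-1 family (-0.74 ± 0.25, adjusted p = 0.0809). Polrmt, the mitochondrial RNA polymerase, had -0.58 ± 0.22 (adjusted p = 0.120), and Dap3, a small-subunit protein, -0.26 ± 0.10 (adjusted p = 0.128). In the average 1 gene of these lists fell, Gatc of the glutaminyl-tRNA amidotransferase (by 0.26 ± 0.07, adjusted p = 0.0328 in edgeR). All 11 mitochondrially encoded protein genes had negative differences in females (median -0.17), mt-Co1 with -0.20 ± 0.16 (adjusted p = 0.495).

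Male and female diet effects were not told apart in these genes. The difference of the diet effects, male minus female, passed in 0 of 77 (0% of all 19616 genes in edgeR), 1 had an unadjusted p under 0.05 (1.30%, against 8.32% of all genes), DESeq2 and limma-voom called 0, and the median was -0.07. For Mrpl52 it was 0.25 ± 0.25, for Mrps36 0.24 ± 0.14 and for Mrps11 0.00 ± 0.16 (SE), with adjusted p of 0.782, 0.639 and 0.999.

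Sex itself gave 0 calls among the 77 genes in edgeR, in control pups (0.112% of all genes) and in Western-diet pups (0.0816%). In controls, 10 genes had an unadjusted p under 0.05 (13.0%, against 13.2% of all genes), DESeq2 and limma-voom called 1 each, and the median male minus female difference was -0.08 (all genes, 0.03). In Western-diet pups, 17 genes did (22.1%, against 6.75%), DESeq2 and limma-voom called 0, and the median was -0.16 (all genes, -0.00), with 72 of 77 negative. Mrpl57 had 126 to 166 CPM in female and 88.7 to 149 CPM in male controls (-0.40 ± 0.10, adjusted p = 0.107), and Mrpl14 63.8 to 88.2 and 49.2 to 90.6 CPM (-0.37 ± 0.11, adjusted p = 0.155). In Western-diet pups Mrps18c had 27.9 to 66.1 CPM in females and 29.7 to 45.1 in males (-0.49 ± 0.15, adjusted p = 0.696), and Mrpl41 68.5 to 148 and 77.5 to 102 CPM (-0.33 ± 0.10, adjusted p = 0.696). The ranges of the sexes overlap for each of these genes.

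Beyond group and batch, most of the genes varied together from library to library. After both were removed, the median correlation over the 2926 pairs of the 77 genes was 0.50 over 24 libraries, with 84.3% of pairs positive, against -0.00 over pairs of all genes; the points share library, depth and cell composition. Mrpl55 followed the others most closely (mean correlation 0.62), then Mrpl36 (0.59). The median gene had a residual SD of 0.18 on the log2 scale.

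A few genes departed from that common course. Mrps24 (residual SD 0.96), Mrps34 (0.64) and Mrpl3 (0.61) had the largest spread, and Mrps26 (0.55) and Mrps30 (0.55), named after their values were seen, came next. Mrps24 encodes a small-subunit protein with a bacterial counterpart and Mrpl3 a large-subunit one, while Mrps26 and Mrps34 encode small-subunit proteins specific to mitochondria. Mean correlations with the other genes were -0.22 for Mrps24, -0.17 for Mrpl3 and -0.04 for Mrps26.

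Mrps24, Mrps34, Mrpl3 and Mrps26 shared a profile of their own, with pairwise correlations of 0.76 to 0.94 over the 24 libraries. All 4 were lowest in replicate 6 of the female Western-diet group, a library of batch 3. There Mrps24 had 8.35 CPM against 53.8 to 140 in the other 5 libraries of its group, Mrps34 4.38 CPM with a group median of 29.4, Mrpl3 17.3 CPM against 66.6 to 94.0, and Mrps26 19.98 CPM with a median of 86.3. Without that library the pairwise correlations were 0.48 to 0.88. Next lowest in the mean profile of the 4 genes, after group and batch were removed, were female control replicate 3 and male control replicates 1 and 5. Male control replicates 1 and 5 had 24.6 and 25.9 CPM of Mrps24 and 31.9 and 35.6 CPM of Mrpl3, both below the other 4 libraries of their group. Female control replicate 3 had 47.3 CPM of Mrps24 and 59.1 CPM of Mrpl3, the lowest of its group.

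The female diet difference of these genes shrank without that library. It changed from -0.55 to -0.22 for Mrps24 when it was left out, from -0.41 to -0.17 for Mrps26, from -0.39 to -0.15 for Mrps34 and from -0.25 to -0.01 for Mrpl3; none passed the test with or without it. The sex difference in control pups does not compare that library's group, so leaving it out could change the fold change little. The SE and p-values rest on the spread over all libraries and can change more. The difference went from -1.11 to -1.08 for Mrps24, from -0.57 to -0.56 for Mrps26 and from -0.48 to -0.46 for Mrpl3. The edgeR adjusted p went from 0.294 to 0.128, from 0.337 to 0.0786 and from 0.484 to 0.256. For Mrps24 the SE went from 0.447 to 0.315. For Mrps34 the difference went from -0.33 to -0.34, the SE from 0.280 to 0.113 and the edgeR adjusted p from 0.638 to 0.172. Without male control replicate 1 the differences of Mrps24, Mrps26 and Mrpl3 were -0.99, -0.53 and -0.35. Without male control replicate 5 they were -0.95, -0.51 and -0.36, and none passed in either case. Female Western-diet replicate 6 had 86 of 9265 genes (mean at least 10 CPM) under 0.5 times the lowest of the 23 other libraries. Of these, 3 were members (Mrps24, Mrps26 and Mrps34). No other library had more than 24 such genes. The profile was not limited to ribosomal proteins: 379 of 19612 other genes (1.93%) correlated with its mean above 0.8, 0 of them other members, but among them the assembly factors Malsu1, Mpv17l2, Rbfa, Noa1, Ddx28 and Mrm1 and the glutamyl-tRNA synthetase Ears2. Malsu1 (0.97), which caps the unfinished large subunit, and Rbfa (0.94), which matures the small-subunit RNA, were close to the mean profile. These genes were picked for their likeness, so the values are a description. Scaled to unit length, the mean profile had -0.77 in female Western-diet replicate 6 and -0.23 in the next lowest library. A gene low in that replicate alone can therefore correlate highly, and these correlations are given with it included.

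**Figure D5:**
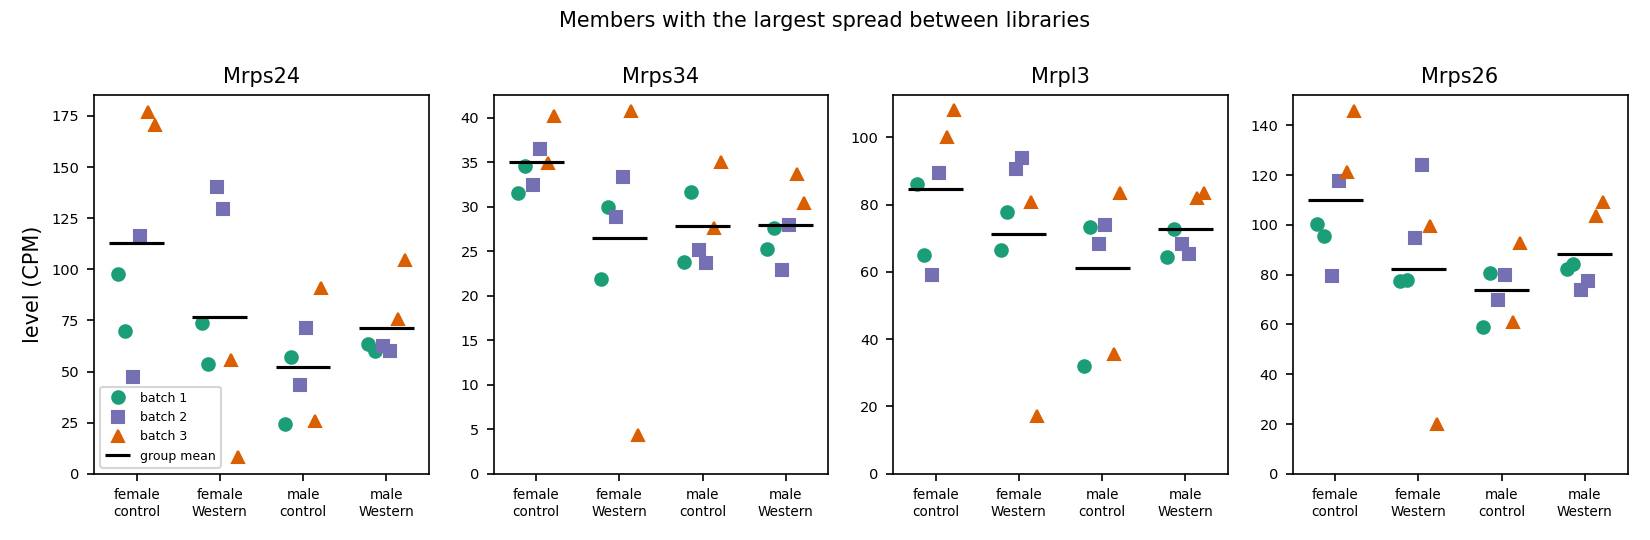
Levels (CPM) of Mrps24, Mrps34, Mrpl3 and Mrps26 in each library, by group; symbols mark the batch and the line is the group mean. The lowest point in every panel is replicate 6 of the female Western-diet group (8.35, 4.38, 17.3 and 19.98 CPM).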

How the data were processed

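Each library has a deposited table of raw counts per gene. The submitters' processing notes name STAR, HTSeq, cutadapt, FastQC, DESeq2 and build GRCm39; versions, annotation release and strand setting are not stated in the notes or labels used here. A NEBNext low-input kit, a type that does not mark strand, was used on samples of RNA integrity number over 8.0, per the labels. The closing lines of each file that name no gene (31.0 to 39.3% of a library's total) stayed out of library sizes and tests. Gene names, exon lengths and exon overlaps came from GENCODE M21 on the older build GRCm38, which named 52081 of 55414 identifiers.

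The 19616 genes kept by filterByExpr were fitted in edgeR 4.0.16 (R 4.3.3) over 24 libraries with TMM scaling, whose factors lay between 0.932 and 1.05. The robust quasi-likelihood fit had terms for the 4 groups and for batch and was first run on simulated counts. There 200 genes were changed in female Western-diet libraries only. The simulated libraries had no batch differences and no genes that vary together, so the run does not show how the fit handles either. The common biological coefficient of variation was 0.261. P-values are two-sided, adjusted by Benjamini-Hochberg over all genes tested and called under 0.05. CPM are counts per 1000000 counts of TMM-scaled library size, and log2 CPM used a prior count of 2. No set test was run; lists are given by counts and medians. Members named with values were mostly taken from the 20 with the smallest p for diet in females and 5 in each other comparison. Added were every one called for diet, the extremes of level and spread, and a few with a particular place in or outside the ribosome. Not all of these are described. Alternatives were another scaling, no filter and a stricter one, DESeq2 1.42.0, limma-voom (limma 3.58.1), no batch term, a replicate block, only the groups compared, and batches or single libraries left out; each batch alone was added after the data were seen. Members, lists and tests were chosen with earlier results of these data known.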

Additional observations from a re-analysis of the deposited data

Results flagged for a closer look

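Single libraries stood apart from the other 5 of their group in 5 of the 92 combinations of gene and group checked. The check covered only part of the genes described, and chance gives about 1 in 20. Mrpl12 had 382 CPM in replicate 6 of the female controls (others 289 to 318) and 423 CPM in replicate 5 of the male controls (others 220 to 285), both libraries of batch 3. Mrpl3 had 17.3 CPM in replicate 6 of the female Western-diet group (others 66.6 to 94.0). Mrps24 had 104 CPM in replicate 6 of the male Western-diet group (others 60.2 to 75.6). Mrps30 had 34.7 CPM in replicate 5 of the female controls (others 6.51 to 10.9), and it shares 9.35% of its exon length with another gene. Mrps25 and Mrps6 are not among the 5, yet each had a high value in replicate 5 of the male controls. Mrps25 had 102 CPM there (others 72.7 to 80.7) and Mrps6 16.4 CPM (others 8.78 to 11.2). Mrps6 also had 14.1 CPM in replicate 5 of the male Western-diet group (others 8.93 to 10.6).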

How the results depend on the processing

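For batch, the 47 genes called became 37 to 54 when a library was left out, and the other settings gave 38 to 54. For diet in females the 2 calls became 4 with DESeq2, 1 with limma-voom, and 0 with no batch term, with the replicate block, with only the groups compared, without batch 1, 2 or 3, without both female control libraries of batch 3, and in batch 1, 2 or 3 alone; with single libraries left out there were 0 to 4. For the average the 3 calls became 5 with RLE size factors, with the stricter filter and with DESeq2, 1 with no filter, without batch 1 and without both female control libraries of batch 3, and 0 with no batch term, without batch 3 and in any batch alone; with single libraries left out there were 2 to 6. Diet in males stayed at 0. The interaction gave 2 with no filter. Sex in controls gave 5 with no filter and 1 with DESeq2 and with limma-voom, and sex in Western-diet pups 0 to 1 with single libraries left out (1 without female Western-diet replicate 1). The cause of these changes was not tested.

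Median log2 fold changes moved in single batches: diet in females -0.23 in batch 1 and 0.048 in batch 3, diet in males 0.014 in batch 2 and -0.24 in batch 3, the average from -0.19 in batch 1 to -0.00 in batch 2, the interaction 0.089 in batch 1 and -0.33 in batch 3, sex in controls -0.25 in batch 2 and sex in Western-diet pups 0.021 in batch 1 and -0.29 in batch 3. With single libraries left out they ranged from -0.11 to -0.03 (females), -0.16 to -0.09 (males), -0.12 to -0.07 (average), -0.11 to -0.01 (interaction), -0.14 to -0.06 (sex, controls) and -0.22 to -0.12 (sex, Western diet). The fits of single batches were not counted for single genes. Each gene result had 30 to 36 other settings, 24 of which left out 1 library, and most results were not called in the main fit. Of these 1760 values for 50 gene results, 1661 kept direction and side of the threshold, 65 lost the call, 33 gained it and 1 changed sign. That was Mrpl16 for diet in females, -0.0034 without batch 3.

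Replicate numbers were not taken to pair the libraries, since not every pair correlated above 0.1. The numbers are nested in the batches. Deviations of same-numbered libraries from their group means correlated from -0.25 to 0.37 over 36 pairs, 25 of them above 0.1. In 16 of the 36 pairs the best match in the other group had the same number. With batch removed too, the median was -0.12, with 1 pair above 0.1 and 1 such best match. With the replicate block the count was 0 in females and 2 in the average. Genes that share exons with others may be undercounted.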
